A study of Homo sapiens with 6 samples.

Results

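Chromosome 1 islands of METTL14 chromatin immunoprecipitation followed by sequencing (ChIP-seq) were examined in HepG2 cells, an established line from a human liver carcinoma. All candidate islands on chromosome 1 were taken except those touching 3 left-out hg19 intervals, chr1:16800000-17250000, chr1:35630000-35670000 and chr1:147500000-149700000. That gave 3351 of the 67802 candidate islands of the DRB table and 1920 of the 38696 of the untreated table, after 32 and 29 islands in the left-out intervals had been set aside. The DRB group was 1 immunoprecipitation (IP) library and 1 input library from cells kept in 100 µM DRB for 3 h, and the untreated group was 2 IP and 2 input libraries of cells without DRB. All cells carried METTL14 complementary DNA with an HA tag at one end and EGFP at the other, brought in by lentivirus, selected with puromycin and sorted for high GFP. The IP used an antibody against HA, so the tagged protein made from the vector, and not the cells' own METTL14, was captured. Both untreated libraries of a kind stood combined in 1 table, so no value has an error between replicates.

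METTL14 forms the core of the RNA N6-methyladenosine writer together with METTL3, the catalytic subunit, and contributes RNA binding and stability to that core. Most of this methylation is laid down on nascent transcripts in the nucleus, so the complex can be crosslinked to chromatin near genes that are being transcribed. DRB, a nucleoside analog, blocks CDK9, the kinase that RNA polymerase II needs to pass from pausing into elongation. Comparing the conditions asks how the METTL14 signal on chromatin differs when elongation is blocked.

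An island is a run of 200 bp windows joined by the program SICER where IP reads are dense. The fold of an island is its IP reads over its input reads, times the constant that the authors' deposited fold contains (0.861 in the DRB table and 1.07 in the untreated table). Intervals in brackets are exact 95% intervals (Clopper-Pearson) and cover counting error only. Chromosome 1 islands held 97085 IP and 70352 input reads in the DRB table, against 560234 and 549044 in the untreated table. Loci are given by hg19 position, because an annotation of that build was not used here, and no gene is assigned to them.

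Chromosome 1 enrichment was shallow in untreated cells, and in DRB cells it was steeper by ratio but rested on few reads. The median fold of the candidate islands was 1.63 with DRB (quartiles 1.25 and 2.15) and 1.11 in untreated cells (1.02 and 1.22), beside 1.51 and 1.08 over all candidates of each table. The median DRB island held 20 IP and 11 input reads, and the median untreated island 205 IP and 199.5 input reads. Among islands with at least 20 input reads the median fold was 1.08 with DRB and 1.11 in untreated cells, and under total-read scaling it was 1.27 and 1.05 over all chromosome 1 islands. DRB islands were narrower, with a median width of 1.8 kb against 4.0 kb in untreated cells.

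The authors' deposited list, which holds islands with a false discovery rate (FDR) under 1e-04, contained 220 of the 3351 chromosome 1 islands with DRB, or 6.57% (5.75 to 7.46), where the background over all DRB candidates was 4.76%. For untreated cells the authors' deposited list contained 166 of the 1920, or 8.65% (7.43 to 9.99), with a background of 5.10%. Both shares lay above their backgrounds, and islands are not independent replicates, so the difference was not tested. The listed DRB islands had a median fold of 4.02 from medians of 17 IP and 3 input reads, over a median width of 1.0 kb. The listed untreated islands had a median fold of 1.51 from medians of 222.5 IP and 154.5 input reads, over 3.3 kb. At a 10 times lower FDR, 69 DRB islands and 107 untreated islands would be listed. Of the 219 listed DRB islands with an input read 218 reached a fold of 2, against 10 of the listed untreated islands.

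To include the counting error of the input, each island was also given an exact two-sided binomial test of IP against input reads, adjusted by Benjamini-Hochberg over the whole table. At an adjusted p of 1e-04, 0 chromosome 1 islands passed with DRB (background 0.00442%), and 32 passed in untreated cells (background 0.70%). At an adjusted p of 0.05, 0 DRB islands (background 0.00885%) and 163 untreated islands (background 5.17%) were higher in the IP. At an unadjusted p under 0.05, 492 DRB islands (14.7%, background 12.4%) and 480 untreated islands (25%, background 19.0%) were higher in the IP. No chromosome 1 island of the DRB table was therefore called enriched by this test, which compares these libraries and not the conditions. At DRB read counts the test could call few islands. Over all 67802 DRB candidates only 6 were higher at 0.05. A chromosome 1 island with 28 IP and 5 input reads, a fold of 4.82, had an adjusted binomial p of 0.241. The 0 for DRB thus does not show that enrichment was absent or weaker than in untreated cells.

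**Figure D1:**
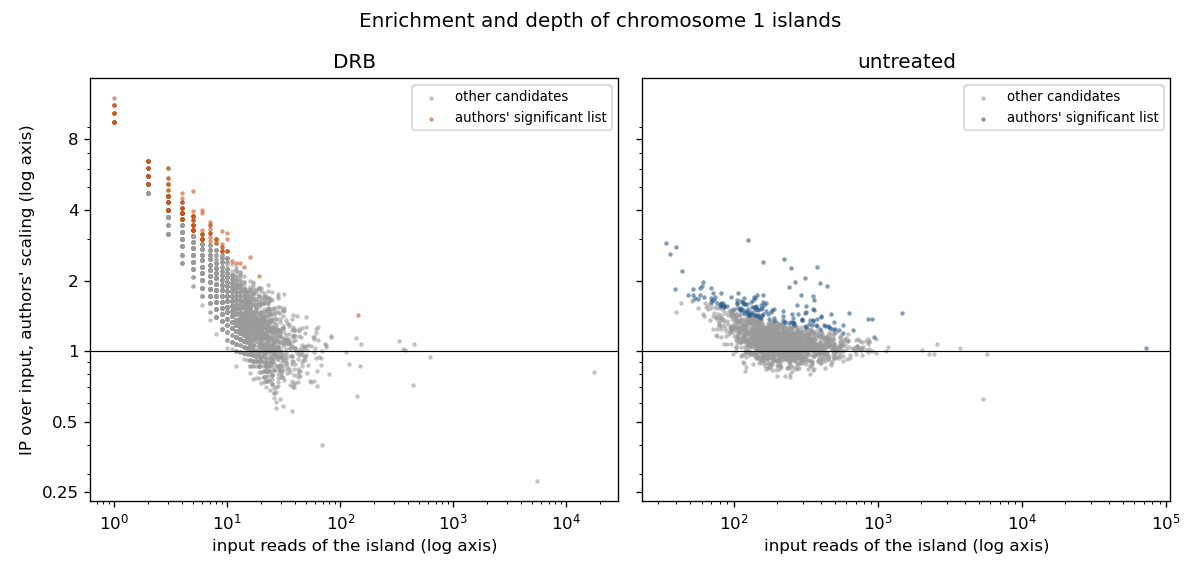
Fold (IP over input reads with the authors' scaling, log axis) against the input reads of each chromosome 1 island (log axis), DRB left and untreated right; each point is an island, coloured where the authors list it as significant, and the 1 DRB island with 0 input reads cannot be drawn. Listed DRB islands gather at few input reads (median 3), whereas listed untreated islands have a median of 154.5.

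Narrow islands were listed more often than wider ones. Of the DRB islands 200 to 1000 bp wide, 16.0% (13.6 to 18.7) were listed, against 3.47% (2.77 to 4.29) of those 1200 to 4000 bp wide. In untreated cells the shares were 34.3% (19.1 to 52.2) of only 35 islands and 9.28% (7.55 to 11.3) of 991. No more than 10 input reads lay under 86.1% of the narrow DRB islands and under 38.8% of the wider ones.

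The strongest untreated loci were ranked by the lower bound of the interval among listed islands, and the first 20 had folds of 1.65 to 2.96 and widths of 0.6 to 7.8 kb. Of these, 11 lay on the short (p) arm and 9 on the long (q) arm, and 18 had an adjusted binomial p under 1e-04. The rank and the binomial test use the same read counts, so that number is no separate support. The first was chr1:45186601-45188400, with 348 IP and 126 input reads and a fold of 2.96 (2.41 to 3.66). A second of the 20, chr1:45194601-45198000, lay close by at 1.88 (1.60 to 2.21), and together they made a locus of 11.4 kb with a fold of 2.25. Another, chr1:45284801-45287200, had a fold of 2.39 (1.98 to 2.90), so the 45 to 50 Mb bin held 3 of the 20.

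The second island by rank was chr1:28972801-28976400, with 514 IP and 224 input reads and a fold of 2.46 (2.10 to 2.89). The fifth, chr1:11967601-11970400, had 525 IP and 249 input reads and a fold of 2.26 (1.94 to 2.64). These 5 p arm loci were between 1.8 and 3.6 kb wide and had 1.19 to 1.70 times the median input density of all untreated candidates. Their input was therefore near the typical level.

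The islands of rank 3 and 8 stood out by their input. At chr1:91851801-91853200 the fold was 2.29 (2.02 to 2.59) with an input density 5.17 times the median, and at chr1:156186201-156186800 it was 2.06 (1.79 to 2.37) with a density 9.94 times the median. They were the only 2 of the 20 that reached 5 times the median density. What a raised input density at these places comes from was not tested.

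Short islands with high folds and few reads followed on the q arm. The island chr1:146555601-146556600 had 92 IP and 34 input reads and a fold of 2.90 (1.94 to 4.44). At chr1:228639401-228640800 there were 104 IP and 40 input reads and a fold of 2.79 (1.92 to 4.12), and at chr1:185554801-185556000 there were 87 and 36 reads and a fold of 2.59 (1.74 to 3.94). Their intervals overlap those of the first 5 islands, so the order among them is not settled by counting error.

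Broader loci among the 20 had lower folds and narrower intervals. The p arm island chr1:59244401-59252200, 7.8 kb wide, had 720 IP and 397 input reads and a fold of 1.95 (1.72 to 2.21). The q arm islands chr1:145381201-145386600 and chr1:149855401-149862200 had folds of 1.97 (1.69 to 2.30) and 1.89 (1.68 to 2.13). Near the end of the p arm, chr1:930001-937800 had a fold of 1.72 (1.51 to 1.97), and chr1:86044001-86051400 one of 1.65 (1.44 to 1.89). The other 5 were chr1:22102201-22103000, chr1:20939601-20941200, chr1:236259801-236262400, chr1:218877401-218880800 and chr1:229356401-229358200, with folds between 1.73 and 2.19.

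The widest 5 listed untreated islands had lower folds than the 20. The widest, chr1:234732601-234751200, spanned 18.6 kb with 2005 IP and 1478 input reads and a fold of 1.46 (1.36 to 1.56). At chr1:28831601-28846800 the fold was 1.38 (1.26 to 1.51) over 15.2 kb. The other 3, at chr1:8074401-8089800, chr1:169339801-169353000 and chr1:244995001-245007400, had folds of 1.15, 1.2 and 1.23 and reached the binomial threshold only at 0.05, with adjusted p values of 0.0396, 0.0417 and 0.00557.

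Listed islands were mostly isolated. Joined within 20 kb, the 220 listed DRB islands formed 214 loci, 5 of them with more than 1 island, and the 166 listed untreated islands formed 152 loci, 13 of them with more than 1. The longest untreated locus, chr1:86044001-86096400, held 3 islands over 52.4 kb with folds of 1.44 to 1.65. The DRB locus with most islands, chr1:219292201-219311600, held 3 over 19.4 kb, but only 62 IP and 14 input reads in all.

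The 10 leading DRB islands by the same rule had between 11 and 28 IP reads and between 0 and 6 input reads, and were 0.2 to 1.2 kb wide. At chr1:19942801-19944000 there were 28 IP and 5 input reads, a fold of 4.82 with an interval of 1.84 to 16.0. At chr1:98548001-98548600 and chr1:169155201-169155800 there were 21 IP and 3 input reads each, a fold of 6.02 (1.80 to 31.5). At chr1:236560801-236561000 there were 11 IP reads and no input read, so no fold is given; the lower bound of its exact interval was 2.16. None of the 10 lay over an untreated candidate island, where only 15 of all 220 listed DRB islands (6.82%) did. Their adjusted binomial p values were 0.241 to 0.353.

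At 14 of the 20 strongest untreated loci the DRB table also had a candidate island, and none of those was listed as significant. Of all 166 listed untreated islands, 57.2% lay over a DRB candidate and 1.2% over a listed DRB island. Of the other untreated candidates, 50.8% lay over a DRB candidate. The islands of both tables differ in extent, the DRB islands covering 0.8 to 4.2 kb. The ratio of DRB to untreated fold was below 1 at 13 of the 14, with a median of 0.503, and its exact conditional interval lay wholly below 1 at 8. The 20 were picked for a high untreated fold, which by itself favours ratios below 1, so these ratios are a description. At chr1:45186601-45188400 the fold was 1.58 (0.748 to 3.50) with DRB from 22 IP and 12 input reads, against 2.96 in untreated cells, and the interval of the ratio (0.244 to 1.22) includes 1.

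At several of these loci the DRB fold was below 1. At chr1:28972801-28976400 the DRB fold was 0.877 (0.587 to 1.31), against 2.46 in untreated cells. At chr1:236259801-236262400 it was 0.399 (0.254 to 0.615), against 1.74 in untreated cells. The locus at chr1:59244401-59252200 differed from the others, with a fold of 1.95 (1.21 to 3.23) with DRB, from 3 islands, and 1.95 (1.72 to 2.21) in untreated cells. The ratio there was 1.00 (0.611 to 1.69), so the interval allows a difference in either direction.

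**Figure D2:**
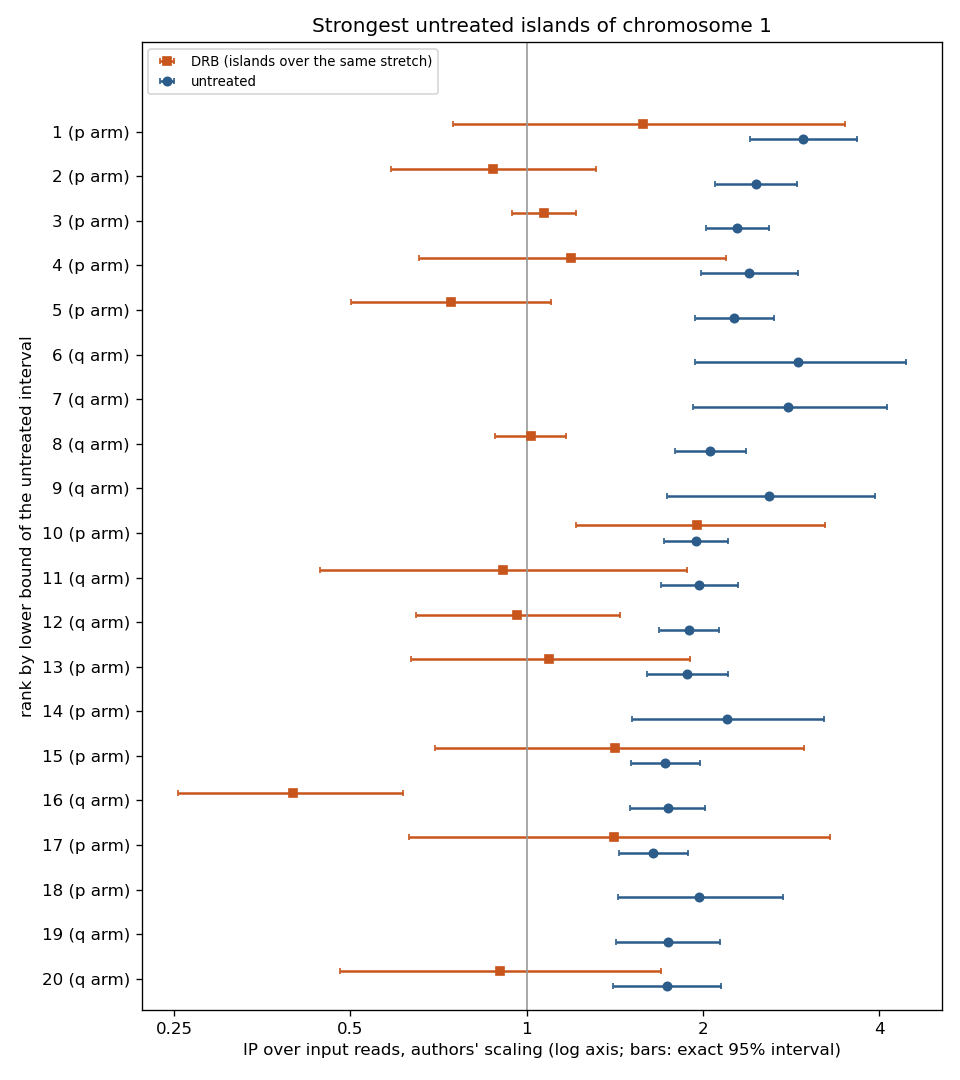
Fold of the 20 strongest untreated islands (rank by lower bound, top to bottom), with DRB squares above untreated circles on a log axis and exact 95% intervals as bars; ranks without a square have no DRB candidate island. All untreated intervals lie above 1, which the ranking by lower bound favours, and 13 of 14 DRB values lie below their untreated value.

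Input and IP densities were divided by the median of all candidates of the same table. These medians were 7 input and 12.2 IP reads per kb with DRB, and 52.3 of each in untreated cells. Candidates are places of dense IP reads, so the medians depend on depth themselves, and the division does not remove every effect of depth. The loci were picked for a high untreated fold, and no share over all matched islands is given here, so the counts below are a description. At 13 of the 14 loci the relative input density was higher with DRB than in untreated cells, and at 10 of the 14 the relative IP density was lower. At chr1:28972801-28976400 the relative input density was 5.31 with DRB and 1.19 in untreated cells, while the relative IP density was 3.10 with DRB and 2.73 in untreated cells. At chr1:45194601-45198000 it was 3.71 and 1.37 for the input, and 2.70 and 2.40 for the IP. At both loci the relative input density was higher with DRB and the relative IP density was not lower. At chr1:11967601-11970400 the IP density was 0.994 with DRB and 3.58 in untreated cells, with 2.01 and 1.70 for the input. The DRB islands there are wider or narrower than the untreated ones, and the part of island extent in these densities was not tested.

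**Figure D3:**
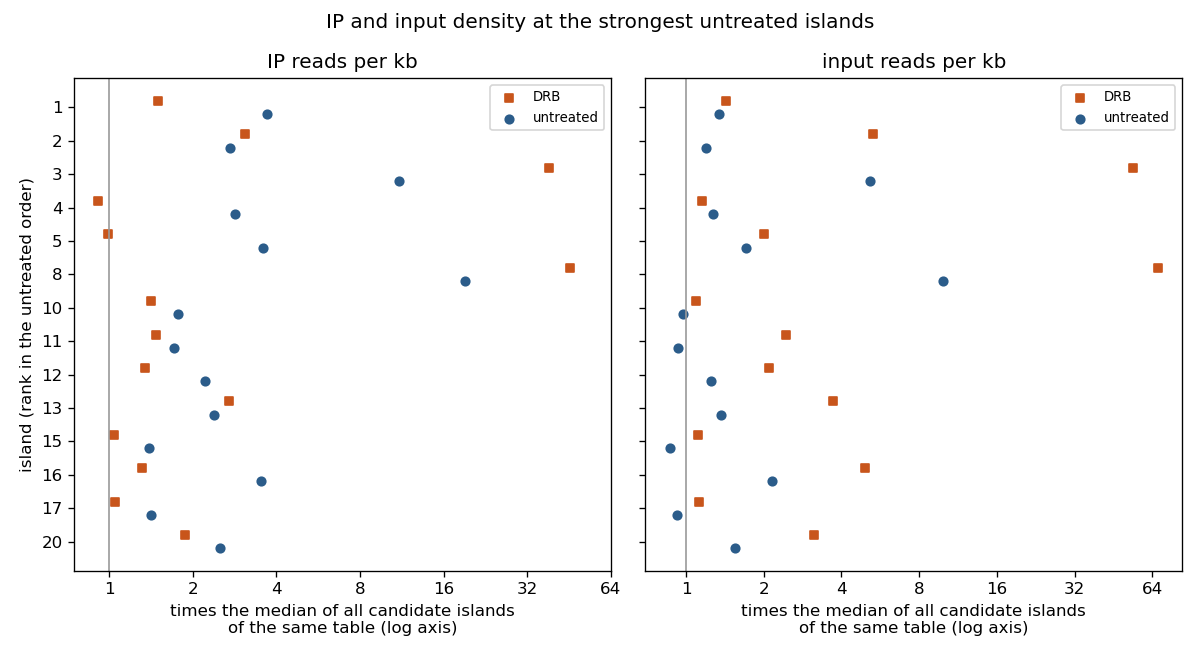
Density of IP reads (left) and input reads (right) at the 14 strongest untreated loci that also have DRB islands, as multiples of the median of all candidate islands of the same table (log axes), with DRB squares and untreated circles. The input squares lie to the right of the circles at 13 of 14 loci.

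Over matched islands the median ratio of the conditions was close to 1. On chromosome 1, 434 pairs of DRB and untreated islands overlapped each other by at least 50%, and the median log2 ratio of DRB to untreated fold was 0.12 (quartiles -0.17 and 0.36), beside 0.16 over all 7548 pairs. Scaled by the total reads of nuclear islands, these medians were -0.15 and -0.11, so their sign depends on the scaling. Each pair was tested with an exact conditional test of its 4 read counts, adjusted by Benjamini-Hochberg over all pairs. At an adjusted p of 0.05, 6 pairs were lower with DRB (1.38%, background 0.901%) and 0 were higher (background 0.0397%). At an unadjusted p under 0.05, 19 were lower (4.38%, against 2.76% of all pairs) and 5 higher (1.15%, against 3.05% of all pairs). The count of lower pairs was 12 under total-read scaling and 1 without islands of high input density. Among the 45 pairs whose untreated island was listed, the median log2 ratio was -0.56, beside -0.36 over all 339 such pairs; these pairs too were selected for a high untreated fold.

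Of the 6 called pairs, 5 reached 5 times the median input density in one table or both. The exception was chr1:11967601-11970400, with a fold of 0.744 (0.501 to 1.1) with DRB and 2.26 (1.94 to 2.64) in untreated cells, a ratio of 0.329 (0.215 to 0.503) and an adjusted p of 2.98e-05 in the exact conditional test. The DRB island there, chr1:11966801-11971000, was 4.2 kb wide and the untreated island 2.8 kb. Its reads thus include flanks outside the untreated island, and their part in the ratio was not tested. The islands at chr1:91851801-91853200 and chr1:156186201-156186800 had DRB folds of 1.07 and 1.02, against 2.29 and 2.06 in untreated cells. Their DRB input densities were 53.8 and 67.1 times the median, against 5.17 and 9.94 times in untreated cells. The 3 others lay at chr1:569601-570200 and, next to the centromere gap, at chr1:121478401-121478800 and chr1:121482001-121485600. Their folds were 0.279, 0.716 and 0.815 with DRB, against 0.627, 1.01 and 1.03 in untreated cells.

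The 5 pairs with the highest lower bound of the ratio did not pass the test; other pairs had ratios as high with wider intervals. The first by that bound, chr1:31497401-31502600, had a fold of 2.53 (1.41 to 4.78) with DRB and 1.12 (0.930 to 1.35) in untreated cells, with an adjusted p of 0.423 in the exact conditional test. The next 4, at chr1:45599801-45604200, chr1:93001801-93004600, chr1:63951601-63956000 and chr1:152006601-152009800, had ratios of 1.89 to 2.39 and adjusted p values of 0.739 to 0.837 in the same test. They rest on 10 to 23 DRB input reads each.

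Few listed islands were shared by the conditions, here as over all chromosomes. On chromosome 1, 2 of the 220 listed DRB islands (0.909%, 0.11 to 3.25) shared a base with a listed untreated island, which is 2 of the 166 listed untreated islands (1.2%, 0.146 to 4.28). Over all chromosomes the shares were 1.08% (0.756 to 1.5) of the listed DRB islands and 1.77% (1.24 to 2.46) of the listed untreated islands. At chr1:114476401-114480400 the fold was 2.68 (1.23 to 6.45) with DRB and 1.41 (1.13 to 1.76) in untreated cells. At chr1:237068201-237069400 it was 3.16 (1.24 to 9.51) with DRB and 1.56 (1.17 to 2.09) in untreated cells. Listed DRB islands seldom lay over any untreated candidate, 6.82% (3.87 to 11.0) against 36.3% (34.6 to 38.0) of the other DRB candidates, where all chromosomes gave 19.9% against 53.7%. The listed DRB islands had a median width of 1.0 kb, against 1.8 kb for all chromosome 1 DRB islands. At most 10 input reads lay under 96.8% of them, against 49.2% of all. The part of width and depth in this contrast was not tested, and islands are not independent replicates. Of the listed untreated islands 57.2% (49.3 to 64.9) lay over a DRB candidate, against 50.8% (48.4 to 53.2) of the other untreated candidates, where all chromosomes gave 52.3% against 61.6%.

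A fold below 1 was found at 299 DRB islands and 359 untreated islands, or 8.93% and 18.7% of those with input reads, but few of them passed the test. With DRB, 4 islands were lower in the IP at an adjusted binomial p of 0.05 (background 0.0826%), and in untreated cells 1 was (background 0.0853%). The strongest in both was the island at about 0.57 Mb, with 1764 IP and 5450 input reads with DRB and 3155 and 5395 in untreated cells. Its input density was 1946 times the DRB median and 171.9 times the untreated median. The other 3 DRB islands were both centromere-side islands and chr1:236258801-236260800, where 32 IP reads stood against 69 input reads. The last of them overlaps in part the listed untreated island chr1:236259801-236262400.

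The arms were divided at the longest stretch without islands, chr1:121485601-142535400, which is 21.0 Mb long. They carried similar densities of islands, 14.5 per Mb on the p arm and 15.0 on the q arm with DRB, and 8.58 and 8.28 in untreated cells. The length of an arm includes its left-out intervals here. The listed share was 6.75% on the q arm (5.57 to 8.09) and 6.40% on the p arm (5.30 to 7.65) with DRB. In untreated cells it was 8.49% on the q arm (6.74 to 10.5) and 8.78% on the p arm (7.12 to 10.7). The sign of the untreated difference turned under a 10 times lower FDR and when the left-out intervals were kept in, so no order of the arms is given. The pooled DRB fold, 1.44 on the q arm and 1.07 on the p arm, was 1.46 on both when high-density islands, whose input density is at least 5 times the median, were left out.

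Along the chromosome, 5 Mb bins with at least 20 islands spanned a wider range of folds with DRB than in untreated cells. The pooled fold, summed IP over summed input reads with the authors' scaling, had a median of 1.48 over 45 bins with DRB and 1.11 over 41 bins in untreated cells. It was at least 1.2 in 42 of the 45 DRB bins and in 0 of the 41 untreated bins; under total-read scaling 12 DRB bins and 0 untreated bins reached it. The highest DRB bins were 185 to 190 Mb with 1.84 (1.65 to 2.05) and 215 to 220 Mb with 1.82 (1.65 to 2.00), followed by 95 to 100, 115 to 120 and 55 to 60 Mb with 1.74, 1.70 and 1.69. The highest untreated bins were 25 to 30 Mb with 1.197 (1.17 to 1.23) and 15 to 20 Mb with 1.18 (1.14 to 1.23), followed by 155 to 160, 10 to 15 and 65 to 70 Mb with 1.17, 1.17 and 1.16.

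The lowest bin in both was the first, 0 to 5 Mb, with 0.376 with DRB and 0.888 in untreated cells. The island at about 0.57 Mb was the only one of high input density there, and without it the same bin had 1.18 with DRB and 1.25 in untreated cells. With high-density islands left out of all bins with at least 20 islands, only 145 to 150 Mb (1.11) was lower with DRB. In untreated cells the first bin was then the highest. The next lowest DRB bins lay on the q arm side of the gap, 145 to 150 Mb with 1.11, 140 to 145 Mb with 1.13, 150 to 155 Mb with 1.30 and 155 to 160 Mb with 1.30. The next lowest untreated bins were 115 to 120, 100 to 105, 60 to 65 and 75 to 80 Mb, with 1.05, 1.06, 1.06 and 1.07. The bin 115 to 120 Mb was thus among the highest with DRB and the lowest in untreated cells. The bin 155 to 160 Mb was among the lowest with DRB and the highest in untreated cells, but without its 1 island of high input density it had 1.42 with DRB and 1.14 in untreated cells and was among neither the 5 lowest nor the 5 highest.

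**Figure D4:**
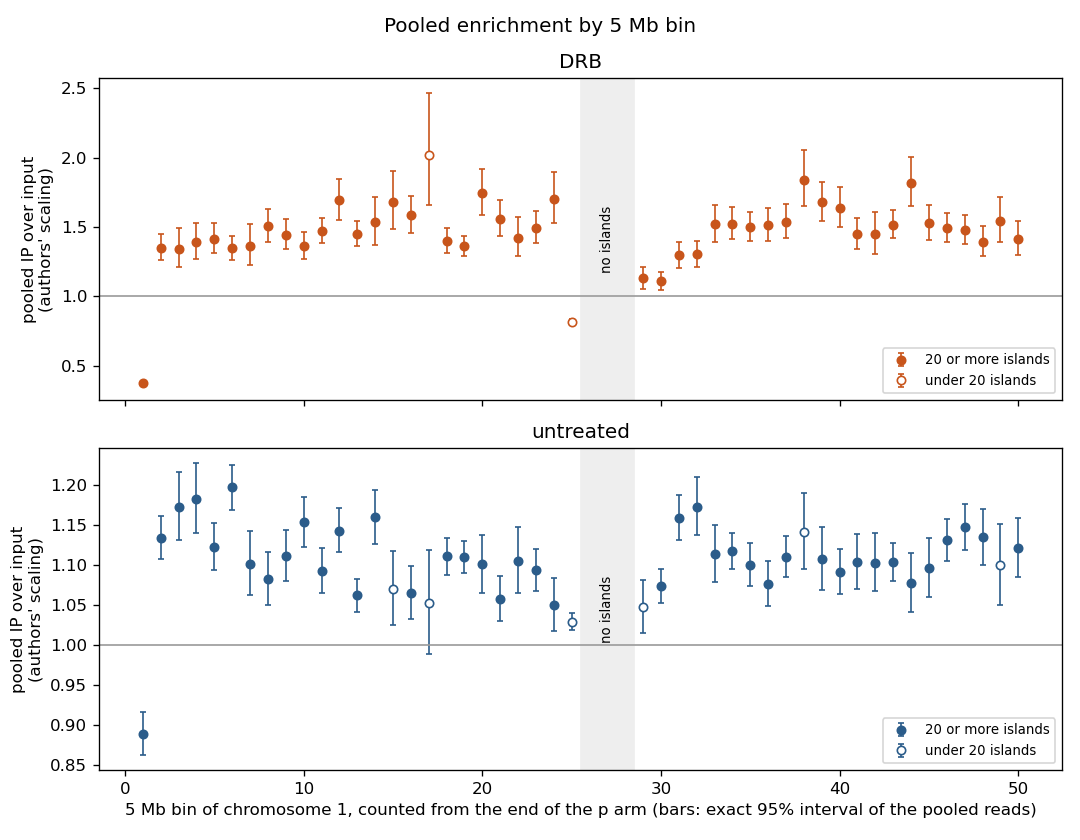
Pooled fold by 5 Mb bin of chromosome 1, numbered from the end of the p arm, DRB above and untreated below with different vertical scales; bars are exact 95% intervals, open circles are bins with under 20 islands, and the grey band holds no islands. DRB bins mostly lie between 1.1 and 1.84 and untreated bins between 1.05 and 1.197, with the first bin lowest in both.

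Bins with many islands in one table had many in the other, with a Spearman correlation of island numbers of 0.79 over the 41 bins. Their pooled folds ran in opposite order (-0.39, and -0.50 over 40 bins without the first). With DRB, the median fold of a bin was lower where its input density was higher (-0.74), while in untreated cells that correlation was 0.12. Bins share their libraries and depth, and input reads enter both fold and density, so these values only describe the bins. Listed islands were most numerous with DRB at 55 to 60 Mb (10 of 74, 13.5%) and 165 to 170 Mb (10 of 87, 11.5%). The untreated bins with most were 150 to 155 Mb (13 of 69, 18.8%), 5 to 10 Mb (11 of 57, 19.3%) and 25 to 30 Mb (10 of 66, 15.2%). The background over all candidates was 4.76% with DRB and 5.10% in untreated cells. By share, among bins with at least 20 islands, other bins led. These were 70 to 75 Mb with DRB (6 of 39, 15.4%) and 15 to 20 Mb in untreated cells (5 of 25, 20%).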

How the data were processed

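HA-METTL14 ChIP-seq was deposited, for each condition, as a table of candidates and a list of the significant ones. Per the submitters' processing notes, FastQC 0.11.5, Bowtie 1.1.2, SICER and hg19 were used; for SICER's settings, and for how the 2 untreated libraries were combined, the sources used here give nothing. Per the labels' protocols, 2 µg of antibody was used and reads were 50 nt long. The deposited counts are whole reads per island, not normalized. The deposited fold, a ratio, was used to read back the authors' constant, the deposited FDR, a p-value scale, to check that the lists are the islands under 1e-04, and the deposited p-value was not used further. Column meanings were tested on the values, since the files have no headers.

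Exact binomial and exact conditional (Fisher's noncentral hypergeometric) tests ran on the whole tables with Benjamini-Hochberg adjustment, and were tested on simulated data. Reads are not independent molecules, and tests compare these libraries only. Bins of 5 Mb take islands by midpoint; arms are split at the longest gap. Named islands were the 20 untreated and 10 DRB listed islands of highest lower interval bound, the widest 5, the DRB islands passing the binomial test, the 5 lowest and 5 highest pairs by the interval bound of their ratio nearest to 1, and the 5 highest and lowest bins; loci of several islands and shared islands were named after their values were seen. The members and lists were chosen with earlier results of these data known. The planned gene lists were not counted, because no hg19 gene annotation was used. Starts and ends were each raised by 1 to print 1-based positions. Alternatives were other scalings, a lower FDR, merging, overlap rules, bin size, depth minima and removal of islands whose input density reached 5 times the median. Tests used SciPy 1.17.1 and numpy 2.4.6 under Python 3.11.15, tables pandas 2.3.3, and figures matplotlib 3.10.9.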

Additional observations from a re-analysis of the deposited data

Results flagged for a closer look

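At 6 pairs of chromosome 1 islands the fold differed between the DRB and untreated libraries by the exact conditional test of the read counts. The test covers counting error only, and DRB had 1 IP and 1 input library, so it does not show a difference between the conditions. Both islands of a pair can differ in extent. The ratio of DRB to untreated fold was 0.444 at chr1:569601-570200, 0.329 at chr1:11967601-11970400, 0.467 at chr1:91851801-91853200, 0.711 at chr1:121478401-121478800, 0.793 at chr1:121482001-121485600 and 0.494 at chr1:156186201-156186800. All but the second reach 5 times the median input density in one table or both, and the part of that density in the result was not tested.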

How the results depend on the processing

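Of 43 recomputed summaries 24 kept to the value reported and 19 moved. Listed islands fell to 69 with DRB and 107 in untreated cells under a 10 times lower FDR, and to 0 and 32 under the exact binomial test. Scaling by total nuclear reads gave median folds of 1.27 with DRB and 1.05 in untreated cells, 12 DRB bins of at least 1.2, a median log2 ratio of -0.15 (all pairs -0.11, a shift of -0.27) and 12 pairs lower with DRB. No scaling gave medians of 1.89 and 1.03. At least 20 input reads gave a DRB median of 1.08 and a log2 ratio of 0.013. The log2 ratio was 0.19 with any overlap and -0.56 over listed untreated islands. Bins of 10 Mb gave 21 of 23 DRB bins of at least 1.2, beside 42 of 45 at 5 Mb. That summary moved because there were fewer bins. Without islands of high input density 1 untreated bin reached 1.2 and 1 pair stayed called. Under the lower FDR 0 islands were shared. The causes were not tested. Alternatives concerning high input density in bins and pairs, and all those on called pairs and named islands, were chosen after seeing the data. Of 35 named values 33 kept their call under total-read scaling. A call meant an interval above 1 for an island, and for a pair an adjusted p under 0.05 in the exact conditional test. The island at chr1:8074401-8089800 (1.09) lost its call and the pair at chr1:149855401-149862200 (0.423) gained one. The 20 ranked islands were picked for high lower bounds, so they could hardly lose theirs. Few DRB reads limit every DRB value. No paired analysis was possible because the replicates are combined in the files, and for the same reason no replicate was left out.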
